A study of Homo sapiens with 10 samples.

Results

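The glucocorticoid receptor set holds 8 genes out of the 60558 in the gene tables, and it was chosen by name: the receptor gene NR3C1, the steroid-converting enzyme gene HSD11B2 and the receptor's targets FKBP5, TSC22D3, PER1, SGK1, CRISPLD2 and ZBTB16. They were followed by mRNA sequencing in PC3, an established wild-type human prostate cancer line from a bone metastasis. The cocultivated group is 5 libraries of PC3 cells kept with adipocytes of human bone marrow for 3 days, and the non-cocultivated group is 5 libraries of PC3 cells without them. Each batch number from 1 to 5 is carried by 1 library of either group, and a library is called here by its group and its batch. The labels give no steroid treatment, no hormone content of the medium and no genotype other than WT for either group, and they do not say whether libraries of a group came from separate cultures, so the spread between them may be technical.

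The glucocorticoid receptor waits in the cytoplasm in a complex with HSP90 and other chaperones, moves to the nucleus when it binds cortisol, and there switches genes on or off from DNA sites close to a pair of inverted AGAACA hexamers or by holding back other factors such as NF-kB and AP-1. The enzyme encoded by HSD11B2 turns cortisol into inactive cortisone, and the one encoded by HSD11B1 does the reverse. FKBP5 lowers the receptor's affinity for hormone and is itself induced by it, which closes a feedback loop.

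Of the 8 members, 7 passed the filter on low counts (edgeR's filterByExpr) and were among the 15690 genes tested, and ZBTB16 did not pass. NR3C1, FKBP5, PER1, SGK1 and HSD11B2 were lower in cocultivated cells, and TSC22D3 and CRISPLD2 were higher. Called here means an adjusted p under 0.05 in edgeR's quasi-likelihood test with Benjamini-Hochberg adjustment over all genes tested. By that rule 2 members were higher and 5 lower, while over all genes 33.6% were called, 17.9% as higher and 15.8% as lower. The CPM values of the groups, a gene's counts scaled to the size of its library with edgeR's TMM factors, did not overlap for 7 of 7 members, against 25.4% of all genes tested. By direction those were 2 higher and 5 lower members, against 13.7% and 11.7% of all genes. The members were chosen with earlier results of these data known, so their counts beside these shares are a description only. The differences were small: by fitted fold change they ran from 1.14-fold to 1.51-fold in size, and the median absolute log2 fold change was 0.35 over the members, 0.34 over all called genes and 0.15 over all genes tested. The median signed log2 fold change was -0.30 over the members and -0.01 over all genes tested.

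Library depth was 39074949 to 47658924 expected counts in cocultivated libraries and 41416024 to 51515712 in non-cocultivated libraries, so that a count of 0 allows up to 3 counts, or 0.0582 to 0.0768 CPM. Mitochondrial genes took 1.25% to 3.23% of counts in cocultivated libraries and 1.71% to 3.11% in non-cocultivated ones. The prostate line was checked by 11 markers: the epithelial keratin gene KRT18 had 209 to 291 CPM in cocultivated libraries and 333 to 412 CPM in non-cocultivated ones, while KLK3, the gene of prostate-specific antigen, had 0 counts in all 10. Of the 8 tested prostate markers 0 were higher and 6 lower, and their summed level was 1920 to 2468 CPM in cocultivated against 2162 to 2456 CPM in non-cocultivated libraries. VIM, which was not called, made up most of that sum (1512 to 2039 CPM in cocultivated and 1478 to 1714 CPM in non-cocultivated libraries), and KRT8 (log2 fold change -0.94), KRT18 (-0.61) and HOXB13 fell, the last to 75.6 to 105 CPM in cocultivated against 167 to 203 CPM in non-cocultivated libraries.

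RNA from the adipocytes was looked for with 15 matched adipocyte markers, because mature fat cells themselves express several members. Several adipocyte-defining genes were at or near 0: ADIPOQ had 0 counts over the cocultivated libraries against 2.01 over the non-cocultivated ones, LEP had 1 against 0, and CIDEA and TRARG1 had 0 in all 10. PLIN1, which coats fat droplets of adipocytes, had 50 counts over cocultivated libraries and 64 over non-cocultivated ones. Other markers that were low in PC3 cells went both ways. The fatty acid transporter gene CD36 had 80 counts over cocultivated against 6 over non-cocultivated libraries (0.182 to 0.595 CPM against 0 to 0.0712 CPM). The glycerol channel gene AQP7 had 50 against 16.98. GPD1 had 7 against 15 and LPL 2 against 4, and all of these were too low to be tested. CIDEC fell, with 490 against 995 counts (log2 fold change -0.88, edgeR adjusted p = 0.00585). The summed adipocyte markers nevertheless reached 274 to 436 CPM in cocultivated against 210 to 240 CPM in non-cocultivated libraries, with 3 of 7 tested genes higher and 2 lower. Most of that difference was FABP4, a fatty acid carrier, at 96.1 to 231 CPM in cocultivated and 21.8 to 44.4 CPM in non-cocultivated libraries. PLIN4, another droplet coat gene, had 40.5 to 61.6 CPM in cocultivated and 21.4 to 24.7 CPM in non-cocultivated libraries (log2 fold change 1.11, edgeR adjusted p = 2.07e-06). RBP4 was higher too (log2 fold change 0.32, adjusted p = 0.00185). PPARG, the largest part of the sum in non-cocultivated libraries, went the other way. It had 84.0 to 92.6 CPM in cocultivated and 120 to 127 CPM in non-cocultivated libraries (log2 fold change -0.49, adjusted p = 6.55e-07). Marrow stromal markers summed to 5.82 to 7.34 CPM in cocultivated and 10.8 to 12.8 CPM in non-cocultivated libraries (1 higher and 4 lower of 7 tested), and the stromal chemokine CXCL12 had 0 counts over cocultivated and 1 over non-cocultivated libraries. Blood cell markers summed to 41.7 to 52.9 CPM in cocultivated and 31.9 to 39.0 CPM in non-cocultivated libraries (1 higher and 1 lower of 2 tested). Nearly all of that sum was CD68, a lysosomal gene of macrophages and other cells, at 40.8 to 51.9 CPM in cocultivated and 28.2 to 36.6 CPM in non-cocultivated libraries, while the lysozyme gene LYZ fell (log2 fold change -1.95). PTPRC, the CD45 gene of all white cells, had 8 counts over cocultivated and 7 over non-cocultivated libraries. Endothelial markers summed to 19.7 to 26.3 CPM in cocultivated and 31.3 to 42.2 CPM in non-cocultivated libraries (1 higher and 1 lower of 3 tested). Most of that sum was KDR and PECAM1. KDR fell, with 6.33 to 14.3 CPM in cocultivated and 21.4 to 30.3 CPM in non-cocultivated libraries (log2 fold change -1.23). PECAM1 was not called, at 9.82 to 12.3 against 8.44 to 10.8 CPM, and TEK was the higher gene (0.86). VWF had 6 counts over cocultivated against 4.97 over non-cocultivated libraries. The part of other cells' RNA in the results below was not tested beyond these levels.

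RefSeq promoter windows (GRCh38.p14), each from before to just after a transcription start, were found for 6 of 8 members, 18 windows in all, and none for HSD11B2 and ZBTB16. The full palindrome, AGAACA and TGTTCT parted by NNN, was in 0 of the 18 and in 1 of 35116 windows of all genes (0.00285%). The hexamer AGAACA, searched on both strands and a part of that palindrome, was in 2 of 18, 1 window of FKBP5 and 1 of SGK1, against 14.8% of all windows. CACGTG, the E-box that the clock factors CLOCK and BMAL1 bind, was in 2 of 18, the PER1 window and another FKBP5 window, against 7.26% of all, and the cyclic AMP element TGACGTCA was in 0 of 18 against 1.85%. A match is only a run of letters, not a bound site. The members with a motif, FKBP5, PER1 and SGK1, were all lower in cocultivated cells. In SGK1, 1 of 3 windows held AGAACA just inside the transcript (not shown). The 7 NR3C1 windows held none, though NR3C1 was lower too. Neither the CRISPLD2 window nor the 4 TSC22D3 windows held any. With windows for only 6 members, a link of motif to direction was not tested. The stretches below are examples: the PER1 and FKBP5 ones show where a motif lies, and 1 stretch each of CRISPLD2 and TSC22D3 shows a start region of the members that rose. They lie upstream of exons, except that the last 6 bases of the first FKBP5 stretch, which are the capitals, lie in the exon.
PER1, chr17:8152436-8152654, minus strand, CACGTG in capitals: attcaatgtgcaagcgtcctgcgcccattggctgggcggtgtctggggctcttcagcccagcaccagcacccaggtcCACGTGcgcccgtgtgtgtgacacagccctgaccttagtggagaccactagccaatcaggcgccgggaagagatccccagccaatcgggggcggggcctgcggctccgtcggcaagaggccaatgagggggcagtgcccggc
FKBP5, chr6:35728578-35728683, minus strand, AGAACA in capitals: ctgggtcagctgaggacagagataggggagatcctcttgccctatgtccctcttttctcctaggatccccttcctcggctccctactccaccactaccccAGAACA
FKBP5, chr6:35688943-35689165, minus strand, CACGTG in capitals: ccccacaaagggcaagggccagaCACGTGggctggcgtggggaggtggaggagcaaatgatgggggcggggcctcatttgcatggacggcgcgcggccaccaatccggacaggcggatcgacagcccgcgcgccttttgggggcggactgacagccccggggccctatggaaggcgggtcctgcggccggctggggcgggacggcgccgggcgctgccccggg
CRISPLD2, chr16:84819735-84819983, plus strand, no motif found: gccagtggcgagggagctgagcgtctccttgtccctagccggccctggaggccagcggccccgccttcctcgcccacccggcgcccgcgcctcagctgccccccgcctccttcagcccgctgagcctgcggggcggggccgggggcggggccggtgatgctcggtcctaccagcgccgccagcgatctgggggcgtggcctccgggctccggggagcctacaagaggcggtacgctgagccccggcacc
TSC22D3, chrX:107717136-107717312, minus strand, no motif found: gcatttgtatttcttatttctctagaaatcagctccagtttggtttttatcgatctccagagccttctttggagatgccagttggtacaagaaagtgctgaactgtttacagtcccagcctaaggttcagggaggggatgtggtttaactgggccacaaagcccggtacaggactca

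The receptor itself fell slightly. NR3C1 (ENSG00000113580) had 52.6, 54.0, 60.0, 59.2 and 51.5 CPM in cocultivated libraries of batches 1 to 5, against 62.0, 60.3, 67.9, 65.5 and 61.3 CPM in the non-cocultivated ones. All 5 cocultivated values lay below all 5 non-cocultivated values, though the highest of the first, in batch 3, came close to the lowest of the second, in batch 2. The means were 55.5 ± 3.85 and 63.4 ± 3.19 CPM (SD, n = 5 each), a log2 fold change of -0.19 ± 0.05 (SE) with an edgeR adjusted p of 0.0129. Within batches the log2 ratio was -0.25 to -0.15. In such bulk RNA a smaller share of expressing cells and less RNA per cell cannot be told apart.

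**Figure D1:**
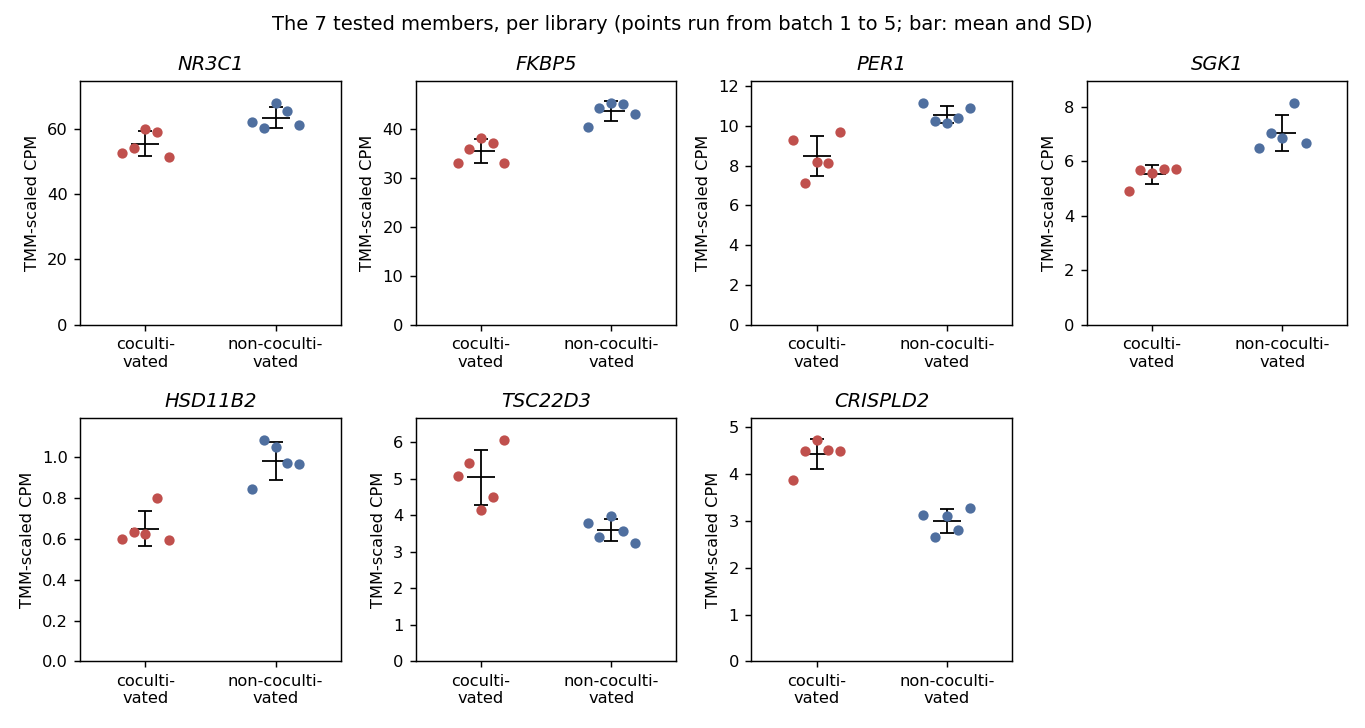
Level of the 7 tested members in each library, in TMM-scaled CPM (vertical axis, from 0), with the cocultivated libraries (red) left of the non-cocultivated ones (blue) and bars for mean and SD over 5 libraries. NR3C1, FKBP5, PER1, SGK1 and HSD11B2 lie lower and TSC22D3 and CRISPLD2 higher in cocultivated libraries, and no pair of groups overlaps.

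The mineralocorticoid receptor NR3C2, which binds cortisol as tightly as aldosterone, fell as well. In transcript abundance corrected for length (TPM) it had 3.49, 3.37, 3.58, 3.04 and 2.82 in cocultivated libraries and 5.05, 4.89, 5.07, 4.54 and 4.18 in non-cocultivated ones, and on counts a log2 fold change of -0.50 ± 0.06 (edgeR adjusted p = 2.89e-05). In TPM, NR3C1 stood 3.80 to 4.39 times above NR3C2 in cocultivated libraries and 3.05 to 3.58 times in non-cocultivated ones, so these ranges did not overlap. The progesterone receptor, which shares these response elements, was barely counted, with 2 counts of PGR over the cocultivated and 3 over the non-cocultivated libraries. Of the list of steroid receptors and steroid enzymes 8 of 20 were tested, and 1 was higher and 2 lower (2 higher with batch as a block, where CYP3A5, picked here after its value was seen, was added), with a median log2 fold change of 0.01. Without that block, 37.5% of the 8 were called, against 33.6% of all genes tested.

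**Figure D2:**
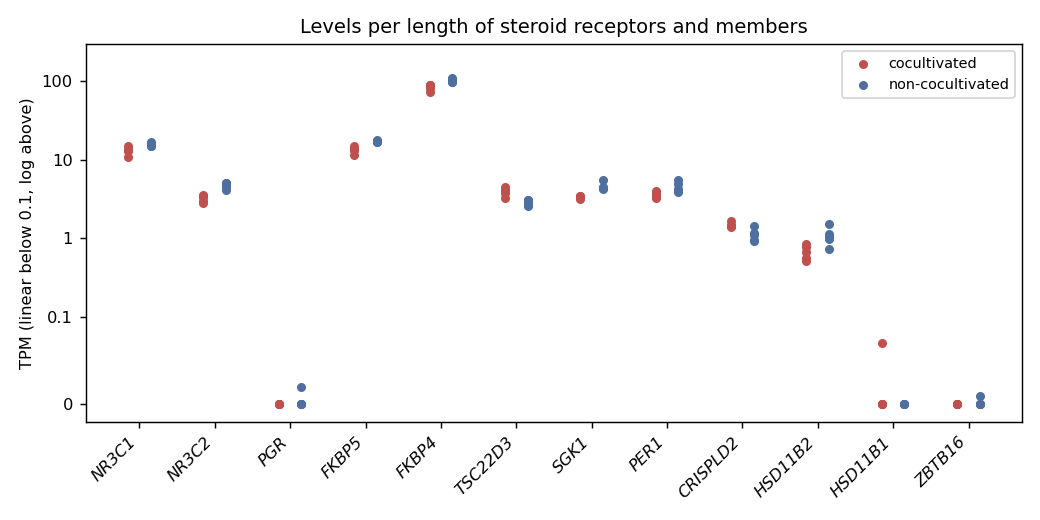
TPM in each library (vertical axis, linear below 0.1 and log above) of 3 steroid receptors, the members and the related FKBP4 and HSD11B1, with cocultivated libraries in red left of non-cocultivated ones in blue. NR3C1 is the most abundant of the receptors shown, while PGR, HSD11B1 and ZBTB16 sit at or near 0.

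Per length, FKBP5 and NR3C1 led the members in both groups. In cocultivated cells FKBP5 averaged 13.4 ± 1.21 TPM and NR3C1 13.2 ± 1.57 TPM, with overlapping ranges. Below them TSC22D3 had 3.96 ± 0.448 TPM, PER1 3.62 ± 0.327 TPM and SGK1 3.38 ± 0.109 TPM, and each overlapped with the next. CRISPLD2 at 1.49 ± 0.0984 TPM and HSD11B2 at 0.678 ± 0.143 TPM closed the order without overlap. In non-cocultivated cells FKBP5 (17.2 ± 0.449 TPM) and NR3C1 (15.8 ± 0.923 TPM) again overlapped, followed by SGK1 (4.60 ± 0.561 TPM) and PER1 (4.57 ± 0.698 TPM), which overlapped too. TSC22D3 came below both of these there, at 2.86 ± 0.222 TPM, ahead of CRISPLD2 at 1.12 ± 0.204 TPM and HSD11B2 at 1.09 ± 0.300 TPM, whose ranges overlapped. Thus TSC22D3 stood above PER1 and SGK1 by its mean in cocultivated cells and below both in non-cocultivated cells (SD, n = 5 each, no test). Between groups, the TPM ranges of FKBP5, TSC22D3 and SGK1 did not overlap. Those of the other 4 tested members did, with NR3C1 at 10.83 to 15.19 TPM in cocultivated and 14.92 to 17.16 TPM in non-cocultivated libraries. The listed transcript length varied between libraries. It was 4045 to 4286 bases in cocultivated and 3459 to 4278 in non-cocultivated libraries for CRISPLD2, and 1170 to 1896 against 1166 to 1896 for HSD11B2. For PER1 it was 2996 to 3886 against 3065 to 3838, and for NR3C1 5710 to 6151 against 5784 to 5950. It varied for TSC22D3 as well, at 1739 to 2002 against 1906 to 2024. Whether length made the ranges overlap was not tested.

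FKBP5 (ENSG00000096060), the immunophilin of the feedback loop, fell as well. It had 33.1, 36.0, 38.3, 37.2 and 33.04 CPM in cocultivated libraries, against 40.4, 44.2, 45.3, 45.2 and 43.1 CPM in non-cocultivated ones. The highest cocultivated value, in batch 3, was below the lowest non-cocultivated one, in batch 1. Means of 35.5 ± 2.38 and 43.6 ± 2.02 CPM (SD, n = 5 each) gave a log2 fold change of -0.30 ± 0.05 (edgeR adjusted p = 0.000762) and within-batch log2 ratios of -0.38 to -0.24.

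The receptor's chaperone machinery changed little in size, with log2 fold changes from -0.27 to 0.08 and a median of -0.13. Of 18 chaperones and immunophilins tested, 0 were higher and 6 lower. That is 33.3% called, against 33.6% of all genes tested. Lower genes were 15.8% of all genes tested. With batch as a block, 1 was higher (BAG1, picked after its value was seen) and 11 lower. The count of lower genes was 3, 2 and 2 without the non-cocultivated library of batch 2, 3 or 4. The 2 lower genes of smallest p were AHSA1, which speeds the ATPase of HSP90, at 355 CPM in cocultivated and 427 CPM in non-cocultivated cells (log2 fold change -0.27 ± 0.06, edgeR adjusted p = 0.00509), and PPP5C, a phosphatase in the receptor complex (-0.17 ± 0.05, adjusted p = 0.0153). FKBP4, which competes with FKBP5 for the complex and aids nuclear transport, was added after its values were seen. Its log2 fold change was -0.20 ± 0.06 (edgeR adjusted p = 0.0263), a call that was lost in 9 of the settings that leave out libraries, without the cocultivated library of batch 1 or 5 or the non-cocultivated one of batch 2, 3 or 4 among them (adjusted p up to 0.0955 over all of them). HSP90AB1, the constitutive HSP90, chosen in the same way, was at -0.20 ± 0.06 (adjusted p = 0.0222), lost without the non-cocultivated library of batch 3 or 4. The TPM ratio of FKBP4 to FKBP5 was 6.07 to 6.75 in cocultivated and 5.82 to 6.18 in non-cocultivated libraries, ranges that overlap.

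PER1 (ENSG00000179094), a clock repressor that glucocorticoids induce within hours, fell too. It had 9.29, 7.11, 8.18, 8.14 and 9.68 CPM in cocultivated libraries and 11.1, 10.2, 10.1, 10.4 and 10.9 CPM in non-cocultivated ones, with the lowest value in the cocultivated library of batch 2. The spread was wider in cocultivated cells, at 8.48 ± 1.02 CPM, than in non-cocultivated cells, at 10.6 ± 0.437 CPM (SD, n = 5 each), but the groups did not overlap. The log2 fold change was -0.32 ± 0.08 (edgeR adjusted p = 0.00771), and within batches -0.53 to -0.17. Another gene, ENSG00000263620, overlaps PER1 on the same strand in GENCODE v29, with 29.03 to 41.69 counts in cocultivated and 17.08 to 43.55 in non-cocultivated libraries (log2 fold change 0.54, adjusted p = 0.106), and reads of the pair could have been split between them.

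The other PER genes had lower levels as well. PER3 was at 6.16 CPM in cocultivated and 10.4 CPM in non-cocultivated cells (log2 fold change -0.76 ± 0.10, edgeR adjusted p = 6.97e-05). PER2 was at 9.60 against 11.2 CPM (-0.22 ± 0.07, adjusted p = 0.0263), a call lost in 10 of 23 alternative settings, among them the absence of the cocultivated library of batch 3 or 5 or the non-cocultivated one of batch 1 or 4 (adjusted p up to 0.0827). Of 20 tested genes of the clock list, which holds PER2 and PER3, 4 were higher and 5 lower, with a median log2 fold change of -0.03, and the lower count was 3 without the non-cocultivated library of batch 4. The lower genes of smallest p were DBP and HLF, PAR bZIP factors that carry clock output to other genes, while TEF, of the same family, was not called (log2 fold change -0.15, adjusted p = 0.119). DBP had 2.39, 2.06, 2.93, 2.75 and 2.48 TPM in cocultivated libraries and 4.62, 5.92, 5.95, 4.35 and 4.49 TPM in non-cocultivated ones, a log2 fold change on counts of -0.89 ± 0.10 (adjusted p = 1.84e-05), and HLF showed -0.90 ± 0.11 (5.03e-05). NR1D2, the REV-ERB beta repressor, rose by 0.27 ± 0.04 on the log2 scale (adjusted p = 0.000346). CSNK1E, a kinase that marks PER proteins for decay, rose by 0.16 ± 0.04 (0.00789), but not with library totals in place of TMM (0.0981) or on TPM (0.735).

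SGK1 (ENSG00000118515), a kinase that glucocorticoids and mineralocorticoids induce and that keeps the epithelial sodium channel at the cell surface, fell. It had 4.92, 5.69, 5.56, 5.72 and 5.73 CPM in cocultivated libraries, against 6.51, 7.03, 6.86, 8.14 and 6.68 CPM in non-cocultivated ones. The library with the lowest value was the cocultivated one of batch 1 and that with the highest the non-cocultivated one of batch 4. The means of 5.52 ± 0.344 and 7.04 ± 0.644 CPM (SD, n = 5 each) differed by a log2 fold change of -0.35 ± 0.08 (edgeR adjusted p = 0.0037), and the within-batch log2 ratios were -0.51 to -0.22. Its paralog SGK3 showed no call (-0.04 ± 0.05, adjusted p = 0.622, 95% interval -0.15 to 0.07), and SGK2 had 3 counts over cocultivated and 6 over non-cocultivated libraries.

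In the pathway around SGK1, 5 of 16 tested genes were higher and 2 lower, with a median log2 fold change of 0.02. Called genes were 43.75% of the 16, against 33.6% of all genes tested. The channel's subunit genes did not move together. SCNN1G, the gamma subunit, had 8.54, 6.77, 7.45, 5.46 and 6.52 TPM in cocultivated libraries and 2.34, 2.13, 2.31, 1.67 and 1.95 TPM in non-cocultivated ones, which was 3.50-fold on counts (log2 fold change 1.81 ± 0.10, edgeR adjusted p = 5.05e-08). SCNN1B, the beta subunit, rose by 0.84 ± 0.09 on the log2 scale (8.16e-06), with 3.87 to 4.95 TPM in cocultivated and 2.34 to 3.08 TPM in non-cocultivated libraries. SCNN1A, the alpha subunit and in kidney and lung the one that steroids induce, fell by 0.61 on the log2 scale (SE 0.15, adjusted p = 0.00615), with TPM ranges that overlapped, 0.68 to 1.79 in cocultivated and 1.55 to 2.27 in non-cocultivated libraries. The TPM ratio of gamma to alpha was 3.78 to 12.2 in cocultivated and 0.859 to 1.37 in non-cocultivated libraries. RICTOR, part of the mTORC2 complex that activates SGK1, was lower, at -0.45 ± 0.10 (adjusted p = 0.00285).

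**Figure D3:**
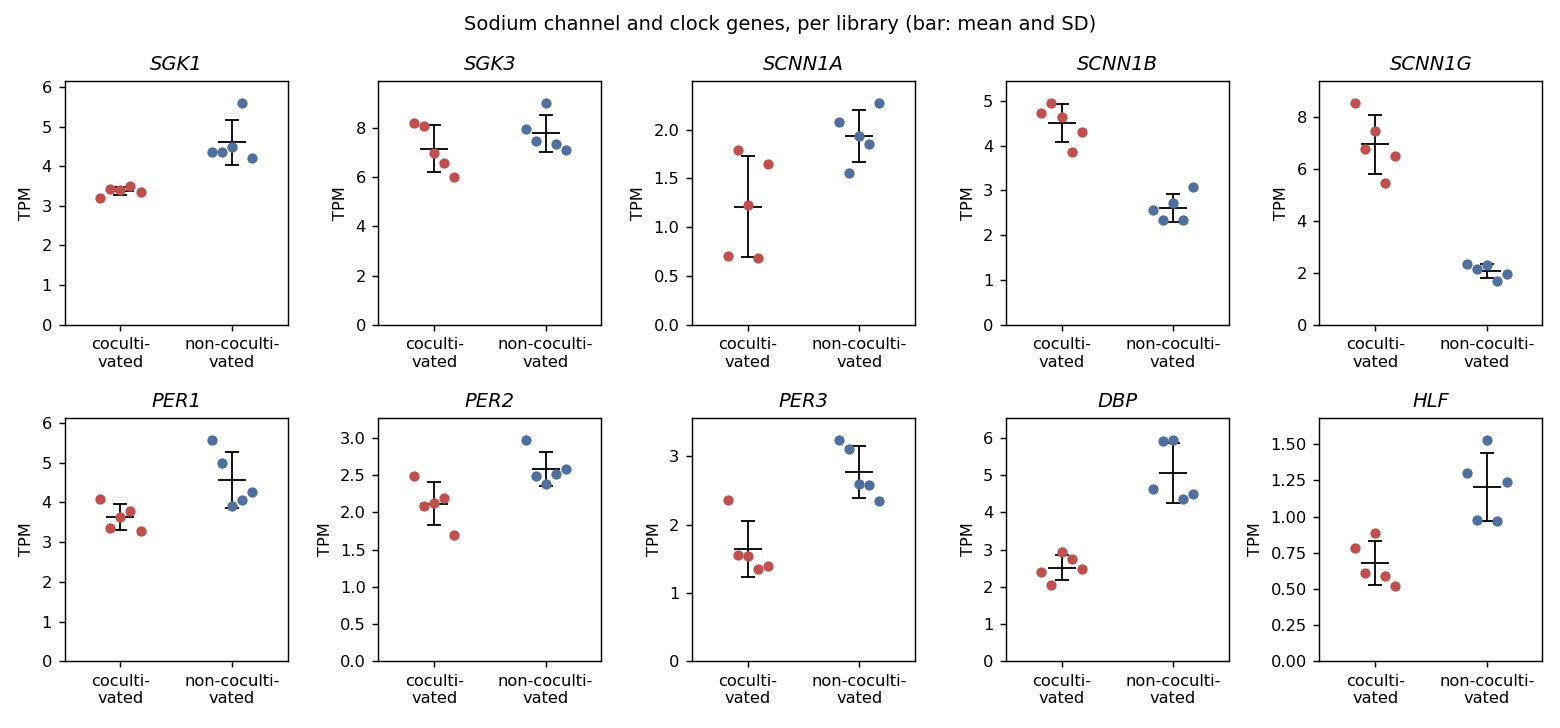
TPM in each library (vertical axes, from 0) of SGK1, SGK3 and the sodium channel subunit genes in the upper row and of the PER genes, DBP and HLF in the lower row, cocultivated libraries in red left of non-cocultivated ones in blue, with mean and SD over 5 libraries. SCNN1G and SCNN1B stand higher in every cocultivated library, while SGK1, DBP and HLF stand lower.

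HSD11B2 (ENSG00000176387), the cortisol-inactivating enzyme gene, had the largest fall among the members and the lowest level of those tested. It had 27, 26, 24, 36 and 27 counts in cocultivated libraries against 45, 55.95, 44, 41 and 45 in non-cocultivated ones, so counting error weighs more on these values than on those of the other members. In CPM these were 0.601, 0.635, 0.623, 0.799 and 0.595 against 0.844, 1.08, 1.05, 0.973 and 0.966. The groups were nearest in batch 4, the highest of the cocultivated libraries. The means were 0.651 ± 0.0842 and 0.983 ± 0.0928 CPM (SD, n = 5 each), with a log2 fold change of -0.59 ± 0.14 (edgeR adjusted p = 0.00664) and within-batch log2 ratios of -0.77 to -0.29. The reverse enzyme gene HSD11B1, an adipocyte gene too, had 1 count in 1 cocultivated library and 0 in the other 9. Among other steroid enzymes, STS, which frees steroids from their sulfates, was at 54.7 CPM in cocultivated against 28.7 CPM in non-cocultivated cells (log2 fold change 0.93 ± 0.11, adjusted p = 2.15e-05), and HSD17B2, which inactivates androgens and estrogens, at 6.15 against 12.2 CPM (-0.98 ± 0.06, 2.06e-07).

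TSC22D3 (ENSG00000157514), which encodes GILZ, a mediator of the anti-inflammatory action of glucocorticoids, rose. It had 5.08, 5.42, 4.15, 4.50 and 6.06 CPM in cocultivated libraries, against 3.79, 3.41, 3.98, 3.56 and 3.24 CPM in non-cocultivated ones. The gain varied by batch: the log2 ratio was 0.06 in batch 3, 0.34 in batch 4, 0.42 in batch 1, 0.67 in batch 2 and 0.90 in batch 5. The groups still did not overlap, with means of 5.04 ± 0.752 and 3.60 ± 0.294 CPM (SD, n = 5 each) and a log2 fold change of 0.49 ± 0.11 (edgeR adjusted p = 0.00322). The cocultivated library of batch 5 was also the highest in the summed adipocyte markers (436 CPM), and without it the log2 fold change was 0.42 (adjusted p = 0.00612). Among its paralogs TSC22D2 rose (58.0 CPM in cocultivated and 44.3 CPM in non-cocultivated cells, 0.39 ± 0.06, adjusted p = 0.000298), TSC22D4 fell (-0.16 ± 0.04, 0.00813) and TSC22D1 showed no call (-0.08 ± 0.04, 0.0863). Over the paralogs of all members, 2 of 16 tested were higher and 8 lower, with a median log2 fold change of -0.12. That is 62.5% called, against 33.6% of all genes tested. The higher count was 1 without the cocultivated library of batch 2 or the non-cocultivated one of batch 1, 2 or 3.

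**Figure D4:**
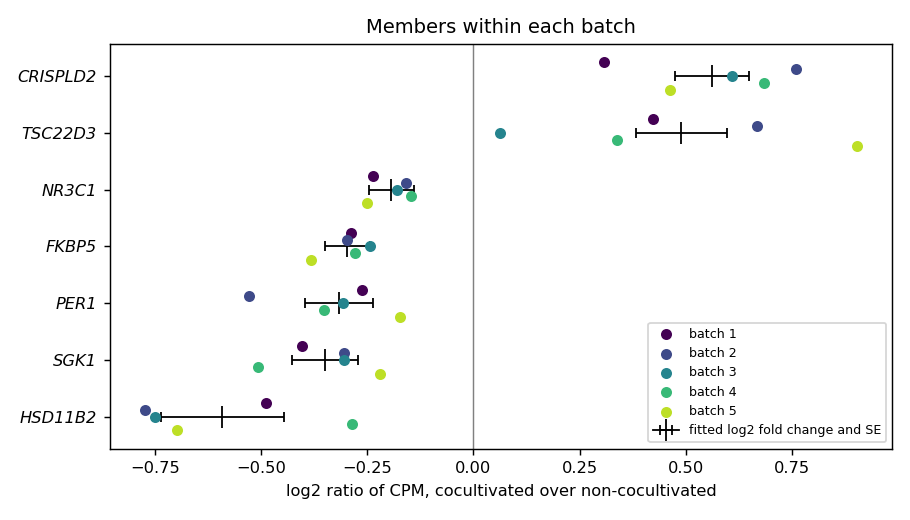
Log2 ratio of CPM, cocultivated over non-cocultivated, within each batch (coloured points) for the 7 tested members, with the fitted log2 fold change and its SE (black). Every point of TSC22D3 and CRISPLD2 lies above 0 and every point of the other 5 below it, with batch 3 of TSC22D3 nearest to 0 at 0.06.

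CRISPLD2 (ENSG00000103196), a secreted protein that glucocorticoids induce in airway smooth muscle, where it curbs cytokine release, rose as well. It had 3.87, 4.49, 4.73, 4.50 and 4.50 CPM in cocultivated libraries and 3.13, 2.65, 3.10, 2.80 and 3.26 CPM in non-cocultivated ones. The cocultivated library of batch 1 was the lowest of its group and yet above all non-cocultivated libraries. Means of 4.42 ± 0.320 and 2.99 ± 0.252 CPM (SD, n = 5 each) gave a log2 fold change of 0.56 ± 0.09 (edgeR adjusted p = 0.000265), and the within-batch log2 ratios were 0.31 to 0.76. Its change was smaller on TPM, where the difference of log2(TPM + 1) was 0.24 (limma adjusted p = 0.0420) and that of log2(TPM + 0.1) was 0.39 (0.0460). At means of 1.49 TPM in cocultivated and 1.12 TPM in non-cocultivated cells, the added 1 itself shrinks the difference. How much of the smaller change came from the added number and how much from length correction was not tested.

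ZBTB16 (ENSG00000109906), the PLZF factor and a strong glucocorticoid target in responsive cells, was not detectable at this depth. Its counts were 0 in all 5 cocultivated libraries and in 4 of 5 non-cocultivated ones, and 1.98 in the non-cocultivated library of batch 1. No fold is given, since both groups are under the limit of 3 counts.

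The wider set of genes that glucocorticoids induce in various tissues was split in direction too, but with more genes higher than lower, unlike the members. Of 35 tested, 16 were higher and 10 lower (74.3% called, against 33.6% of all genes tested), and the median log2 fold change was 0.17. PDK4 (4.20 ± 0.16) and ANGPTL4 (6.40 ± 0.25), both also induced by fatty acids through PPARs, led the higher genes, and without them 14 of 33 were higher and 10 lower, with a median of 0.12. The 2 lower genes of smallest p were BCL6, a transcriptional repressor (-0.67 ± 0.05, edgeR adjusted p = 8.76e-07), and RGS2, a brake on G protein signalling, at 58.2 CPM in cocultivated and 99.0 CPM in non-cocultivated cells (-0.77 ± 0.08, 1.26e-05). A pair of widely used target genes went in opposite directions, but it was picked after its values were seen and is no further evidence of a split. KLF9, a direct target in many cell types, was at 5.95 CPM in cocultivated and 12.2 CPM in non-cocultivated cells (-1.04 ± 0.13, adjusted p = 6.12e-05). DUSP1, a MAP kinase phosphatase that mitogens and stress induce as well, was at 41.9 against 18.5 CPM (1.18 ± 0.15, 5.59e-05).

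Genes that glucocorticoids typically restrain, mostly NF-kB and AP-1 targets, were higher more often than lower. Of 23 listed, 13 were tested, and of these 9 were higher and 3 lower, with a median log2 fold change of 1.02. That is 92.3% called, against 33.6% of all genes tested (17.9% higher and 15.8% lower). The inflammatory cytokine gene IL1B had 146 to 280 CPM in cocultivated and 18.9 to 28.0 CPM in non-cocultivated libraries (log2 fold change 3.03 ± 0.17), and PLAUR, the urokinase receptor gene, rose by 0.77 ± 0.05 (edgeR adjusted p = 3.96e-07). The exceptions included the collagenase genes MMP1 (-1.16 ± 0.05), at 16.6 CPM in cocultivated and 37.3 CPM in non-cocultivated cells, and MMP13 (-3.29 ± 0.23), at 0.470 against 4.69 CPM. Both this list and the induced one were put together with results of these data known, so their counts are a description.

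**Figure D5:**
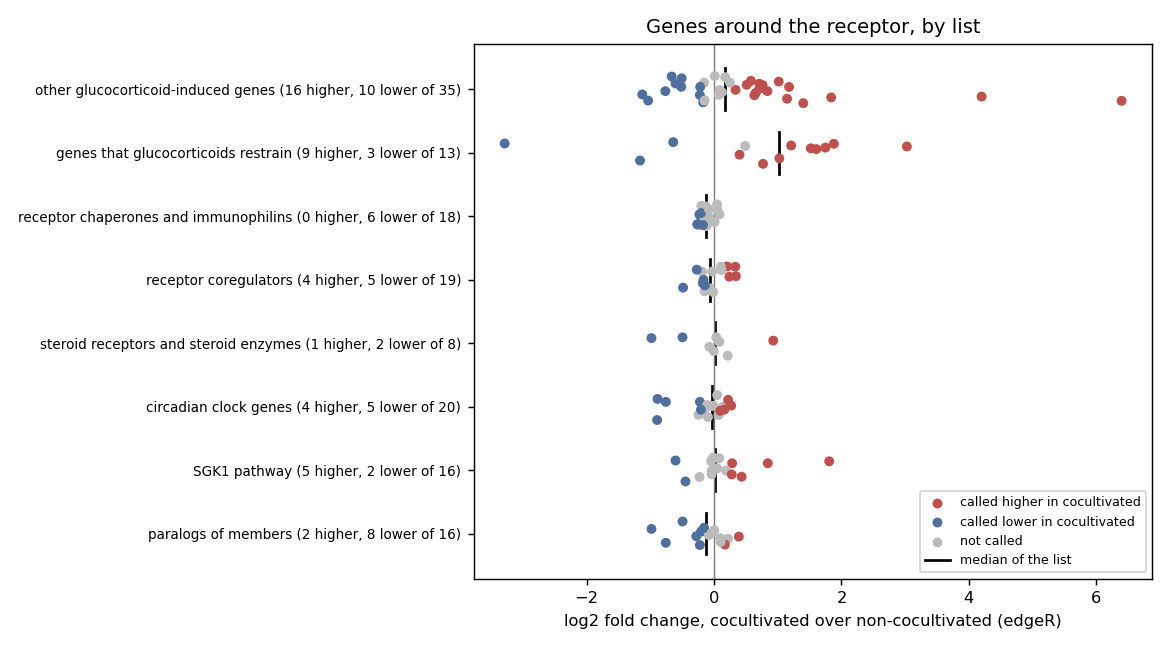
Log2 fold change, cocultivated over non-cocultivated (horizontal axis, edgeR), of each tested gene in 8 lists around the receptor, coloured by call (red higher, blue lower, grey not called), with the list's median as a bar. The list of restrained genes has its median at 1.02, the other medians lie between -0.13 and 0.17, and the chaperone list has no gene called higher.

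The receptor's coregulators were divided, with 4 of 19 tested genes higher and 5 lower and a median log2 fold change of -0.07. Called genes were 47.4% of the 19, against 33.6% of all genes tested. Of the higher ones of smallest p, the coactivator gene NCOA3 was at 0.33 ± 0.08 (edgeR adjusted p = 0.00417) and the corepressor gene NCOR1 at 0.34 ± 0.08 (0.00656), and both calls were lost on log2(TPM + 1), with adjusted p of 0.0946 and 0.174. The lower ones of smallest p were HEXIM1, which binds the receptor and holds back the elongation factor P-TEFb (-0.27 ± 0.05, 0.000927), and the Mediator subunit gene MED14 (-0.49 ± 0.09, 0.00119).

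The genes most like NR3C1 over the 10 libraries, by the root-mean-square (RMS) difference of centred log2 CPM among genes of mean CPM at least 1, were HNRNPA2B1 (RMS 0.0297), NCL (0.0345) and HNRNPA3 (0.0350), all coding for abundant RNA-binding proteins. Their log2 fold changes were -0.21, -0.20 and -0.14, of which that of HNRNPA3 was not called (edgeR adjusted p = 0.0607) and that of NCL was lost without the non-cocultivated library of batch 3 (0.0508). For HSD11B2, the called member with the largest change, the nearest were BDH1, a ketone body enzyme (RMS 0.0745), SERPINI1, a serine protease inhibitor (0.0830), and the carboxypeptidase M gene (ENSG00000135678, 0.0892), with log2 fold changes of -0.55, -0.57 and -0.54. Since these genes were picked by their pattern over the same 10 libraries, fold changes near those of NR3C1 and HSD11B2 follow from the choice.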

How the data were processed

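RNA of 10 PC3 libraries, 5 cocultivated with human bone marrow adipocytes and 5 not, was sequenced from a stranded mRNA kit, per the labels' protocols. Tools named in the submitters' processing notes are RSEM 1.3.3, Bowtie2 2.4.4 and bcl2fastq. Build, annotation and strandedness of the counting were not given in the sources used here, and reads of overlapping genes may have been mixed. The deposited tables give each gene's length, expected count, TPM and FPKM, per the file headers. Expected counts share reads that fit several genes by likelihood, and of the nonzero ones 59.2% were whole within 0.005. The deposited FPKM values, per the file headers, were not used in any test. TPM divides by a length averaged over transcripts by their abundance, so TPM and counts of a gene can differ where its transcripts shift.

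After rounding to whole numbers, expected counts were tested in R 4.3.3 with edgeR 4.0.16: filterByExpr (minimum count 10, minimum total 15), TMM (factors 0.953 to 1.04) and the quasi-likelihood F test of cocultivated against non-cocultivated libraries without a batch term, with Benjamini-Hochberg adjustment over the 15690 genes tested and a threshold of 0.05. All adjusted p come from that edgeR test unless another tool is named. CPM are on TMM-scaled library sizes, SDs are over 5 libraries, and the SE is that of the log2 fold change. The scripts were tested on simulated data with known changes. Alternatives were DESeq2 1.42.0, limma 3.58.1 (voom, and log2 TPM with pseudocounts of 1 and 0.1), other scalings, no filter, batch as a block, and leaving out each library or batch. The TPM settings kept genes with a TPM of at least 1 in at least 5 libraries. The labels call the replicate number a batch but do not say what it marks, so libraries are matched here by number only. The correlation of same-numbered libraries' deviations from their group means was 0.329, -0.019, 0.0734, 0.104 and 0.281 for batches 1 to 5. Limits from a count of 0 cover counting error only, since PCR copies of a molecule are counted as separate reads.

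The members, the gene lists and the cell type markers were chosen with earlier results of these data known. Named genes were the 8 members, the 2 higher and 2 lower called genes of smallest p in each list, fixed paralogs and steroid receptors, and the 3 genes nearest in pattern to NR3C1 and to HSD11B2. KLF9, DUSP1, FKBP4 and HSP90AB1 were added after their values were seen. Of the members, 7 were matched by symbol and PER1 by its Ensembl ID. Some genes stand in more than 1 list, and 1 gene that the rule names is not reported here. Promoter windows are from RefSeq (GRCh38.p14), and exons and overlapping genes from GENCODE v29.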

Additional observations from a re-analysis of the deposited data

Results flagged for a closer look

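Within groups of 5 libraries, 12 of 106 sets of values checked had 1 library whose gap to the nearest of the others, over the whole range, was above Dixon's limit of 0.71, where chance flags about 1 in 20. Among the members, SGK1 was low in 1 cocultivated library (4.92 CPM, next 5.56), CRISPLD2 was low in 1 (3.87 CPM, next 4.49) and HSD11B2 was high in 1 (0.799 CPM, next 0.635). IL1B was high in 1 cocultivated library (280.4 CPM, next 182.0). Single non-cocultivated libraries were high in NCOA3 (99.0 CPM, next 83.0), NCOR1 (107.2 CPM, next 89.1), HEXIM1 (99.7 CPM, next 90.9), MED14 (179.3 CPM, next 135.1), HSD17B2 (13.4 CPM, next 11.99), SCNN1B (4.08 CPM, next 3.36) and RICTOR (87.9 CPM, next 67.7). The non-cocultivated library of batch 1 held the high values of NCOA3, NCOR1, HEXIM1, MED14 and RICTOR. Without it the log2 fold changes were 0.39 for NCOA3, 0.41 for NCOR1, -0.39 for MED14 and -0.35 for RICTOR, all still called by edgeR. The summed adipocyte markers were high in the non-cocultivated library of batch 5 (240.2 CPM, next 213.9).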

How the results depend on the processing

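The 7 tested members kept their direction and their call under every one of the 23 alternatives that could be run for them, with the exception that HSD11B2 was below the TPM filter and so has 21. Their largest adjusted p was 0.0467, for PER1 on log2(TPM + 0.1), and leaving out both libraries of batch 2 gave the largest one of FKBP5 (0.00787), NR3C1 (0.0410), SGK1 (0.0200), TSC22D3 (0.0287) and HSD11B2 (0.0456). No result was reversed under any of them. With batch as a block, the calls over all genes were 3478 higher and 3487 lower, and beside the chaperone counts (1 higher, 11 lower) and the count of steroid genes (2 higher) it moved no count of a list by over 1.5 times. Over all genes 2801 were higher and 2478 lower. Scaling by library totals gave 2216 higher and 3555 lower, and with log2(TPM + 1) or log2(TPM + 0.1) the higher count was 1602 or 1599. The median log2 fold change of all genes moved from -0.01 to -0.06 with library totals and to -0.07 on TPM. Library totals also gave 11 lower chaperones, 2 higher clock genes and 1 higher paralog, and no filter gave 1 higher paralog. Both TPM settings gave 11 lower chaperones, 0 higher coregulators, 1 higher and 3 lower clock genes, 3 higher SGK1 pathway genes and 1 higher paralog. Leaving out both libraries of batch 2 gave 1 lower chaperone, 1 higher and 5 lower paralogs. Without batch 3 there were 1 lower chaperone, 2 higher and 3 lower coregulators, 3 lower clock genes, and 1 higher and 4 lower paralogs. Without batch 4 there were 3 lower coregulators, 3 lower clock genes, and 1 higher and 4 lower paralogs. Leaving out 1 library at a time gave 2430 to 3041 higher and 2057 to 2675 lower genes, 2 to 8 lower chaperones, 3 to 6 lower clock genes and 1 to 3 higher paralogs. The causes were not tested, beyond fewer libraries remaining where libraries were left out. Of single non-members, PPP5C was not called without batch 2 (adjusted p = 0.0678) or 3 (0.0663), TSC22D4 without batch 3 (0.0629) or 4 (0.0551), and NCOR1 without batch 3 (0.0534). HSD11B2 is limited by depth, at 24 to 55.95 counts a library.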
